A study of Saccharomyces cerevisiae with 12 samples.

Results

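The cytosolic ribosome of budding yeast is built from proteins encoded by 137 of the 6660 genes measured here, chosen by name: the RPL genes of the large subunit (76), the RPS genes of the small subunit (56) and the RPP genes of the stalk (5). Of these, 118 form 59 pairs of copies, named A and B, and 19 are single genes. Messenger RNA was sequenced in 12 libraries of Saccharomyces cerevisiae BY4741 and deposited as FPKM, fragments per kilobase of transcript, scaled to the mapped fragments, in 3 tables that were scaled separately. The first table holds mmm1Δ replicate 1, mdm34Δ and wild type (WT) replicate 1. The second holds AFT1-C291F, sam37Δ with and without VPS13-D716H, mmm1Δ replicate 2, its combination VPS13-D716H mmm1Δ, the VPS13-D716H allele alone, and WT replicate 2. The description label of WT replicate 2 points to the third table, but the column that bears its title lies in the second, where it is used as the WT library. The third holds WT in a medium labelled clean YPD with the iron chelator bathophenanthroline disulfonate (BPS, 100 µM for 4 hours) and WT in clean YPD alone. The other cultures grew in YPD, a rich glucose medium, to an OD600 of 0.8 to 1. MMM1 and MDM34 encode subunits of the ERMES complex, which tethers the endoplasmic reticulum to mitochondria, SAM37 encodes a subunit of the machinery that inserts proteins into the mitochondrial outer membrane, VPS13 encodes a lipid transfer protein of membrane contacts, and AFT1 encodes the activator of the iron regulon. Each mutant besides mmm1Δ has 1 library, and the labels do not say whether the replicates of WT and mmm1Δ came from separate cultures, so the spread between them may be technical. MMM1, MDM34 and SAM37 were listed at 0 in every library that carries the deletion and between 6.03 and 72.6 FPKM in the others.

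Ribosomal protein genes are among the most transcribed genes of growing yeast, and their transcription is set by Rap1, which binds their promoters, by the Fhl1 and Ifh1 pair that it helps recruit, and by Sfp1, under the TOR and protein kinase A pathways, so that the family as a rule moves together with growth and stress. Most of the genes exist as paired copies that were kept after a whole-genome duplication and encode nearly the same protein, and a large share of the introns of yeast lie in them. Some copies are held in check by their own product: Rpl30 acts on the splicing of its own transcript, Rpl22 on the RPL22B intron, Rps14 on RPS14B, and Rps28 on the decay of the RPS28B mRNA.

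How far copies can be told apart depends on their sequence, and the coding sequences of the 59 pairs were 69.2 to 99.4% identical with a median of 93.2% in the R64 RefSeq genome, which is the sacCer3 assembly named in the submitters' processing notes. In 20 pairs identity was at least 95%, and the levels of such copies are uncertain, since reads can be shared between them. RPL41A and RPL41B, which encode the smallest ribosomal protein, are the extreme case and are shown because they also had the highest FPKM of the family in every library: over 78 nt they differ at C9T, counted from the first base of the start codon with the RPL41A base first and marked by the capital.
RPL41A (chrIV:130407-130484, minus strand): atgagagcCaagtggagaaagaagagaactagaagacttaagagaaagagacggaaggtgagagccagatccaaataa
RPL41B (chrIV:221724-221801, minus strand): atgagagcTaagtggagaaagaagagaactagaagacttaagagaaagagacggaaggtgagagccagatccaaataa

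The promoter windows of members whose copies moved apart in the comparisons below are shown with a core of the Rap1 motif, CCNTACAT, in capitals, searched on both strands in the 500 nt before the start codon. The core was found before 58 of 137 members (42.3%), at a median of 316 nt from the start codon, and before 278 of 5863 other genes (4.74%). The windows, written 5′ to 3′ on the strand of the gene and numbered in R64, are those of RPS9B, both RPL22 copies, RPS7B and RPS22A. RPS9A and RPS7A had no match in these letters, and nor did RPL9A, RPL9B and either RPS28 copy. The RPS22A window is also the RPL39 window read on the other strand, since these genes diverge from 1 shared promoter.
RPS9B (chrII:604264-604321, plus strand): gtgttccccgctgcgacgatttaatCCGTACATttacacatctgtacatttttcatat
RPL22A (chrXII:262944-263001, plus strand): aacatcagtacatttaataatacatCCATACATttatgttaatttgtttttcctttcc
RPL22B (chrVI:65143-65200, minus strand): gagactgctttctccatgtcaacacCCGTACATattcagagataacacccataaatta
RPS7B (chrXIV:444581-444638, minus strand): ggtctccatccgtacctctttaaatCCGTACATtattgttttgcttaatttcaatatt
RPS22A (chrX:75536-75593, minus strand): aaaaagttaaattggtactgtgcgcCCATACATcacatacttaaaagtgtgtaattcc

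Before the comparisons, 4 libraries stood apart. The copy ratio of a pair is log2 of (FPKM of A + 1) over (FPKM of B + 1) in 1 library, and it does not depend on how a library was scaled; a move is its difference between 2 libraries. Between any pair of the libraries of sam37Δ, VPS13-D716H sam37Δ, WT in clean YPD with BPS and WT in clean YPD, the 59 copy ratios differed by a median of 0.0621 to 0.133, although these libraries lie in different tables and carry different genotypes. They differed from the other 5 libraries of the second table by 0.305 to 0.475, and those 5 differed among themselves by 0.0607 to 0.272. HYP2, the main gene of the translation factor eIF5A, was listed at 0 in the same 4 libraries and at 90.4 to 1417 FPKM in the other 8. The labels name 2 kits for library preparation without assigning libraries to them, so for sam37Δ and VPS13-D716H sam37Δ against WT replicate 2 the genotype and this difference between libraries cannot be told apart.

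**Figure D1:**
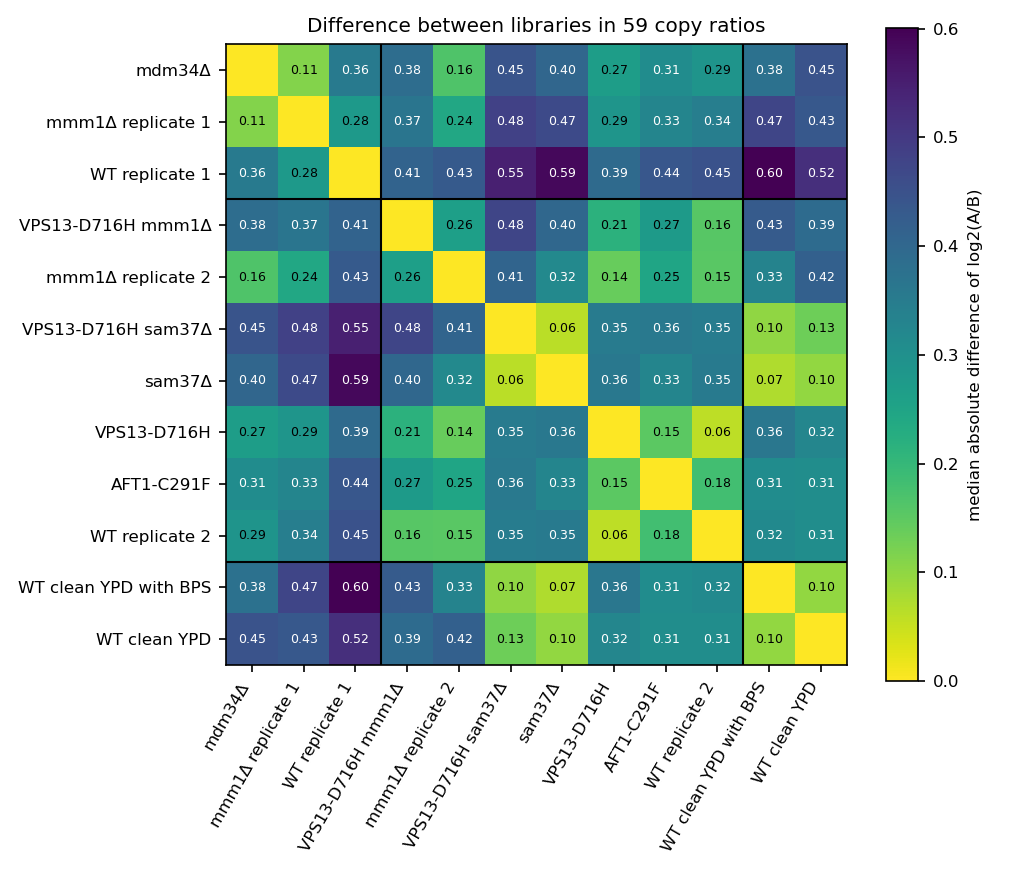
Median absolute difference of the log2 copy ratio over 59 pairs between each pair of the 12 libraries, with black lines between the 3 tables. The libraries of sam37Δ, VPS13-D716H sam37Δ, WT in clean YPD with BPS and WT in clean YPD differ from each other by at most 0.133, and mdm34Δ differs from mmm1Δ replicate 1 by 0.11.

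All 137 members were measured in all libraries, at no less than 204 FPKM, so none was lost to the filter on low values (a mean of at least 5 FPKM over the libraries compared). The median member stood at 3071 FPKM in mmm1Δ replicate 1, 2135 in mdm34Δ and 9484 in WT replicate 1. In the second table it stood at 5586 FPKM in AFT1-C291F, 2661 in VPS13-D716H sam37Δ, 2839 in sam37Δ, 4949 in VPS13-D716H mmm1Δ, 4647 in mmm1Δ replicate 2, 7698 in VPS13-D716H and 9457 in WT replicate 2. In the third it stood at 3596 FPKM with BPS and 3554 in clean YPD. The ends of the family were held by few genes: RPL41B was highest in every library, up to 2071980 FPKM in WT replicate 1, and the lowest was RPL15B in 7 libraries, RPL22B in 4 and RPS9A in WT replicate 1.

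Weighted by exon length, the family held 32.6% of all FPKM in mmm1Δ replicate 1 and 29.8% in mdm34Δ, against 46.6% in WT replicate 1. In the second table the share was 24.4% in AFT1-C291F, 19.0% in VPS13-D716H sam37Δ, 19.6% in sam37Δ, 25.5% in VPS13-D716H mmm1Δ, 26.3% in mmm1Δ replicate 2 and 35.5% in VPS13-D716H, against 38.0% in WT replicate 2. It was 19.8% with BPS and 19.7% in clean YPD. The shares of both sam37Δ libraries thus lay beside those of both clean YPD libraries, and the shares of the ERMES mutants below those of the WT library of their own table. FPKM are relative to the rest of a library, and in bulk cultures fewer cells with a transcript and less RNA per cell cannot be told apart.

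**Figure D2:**
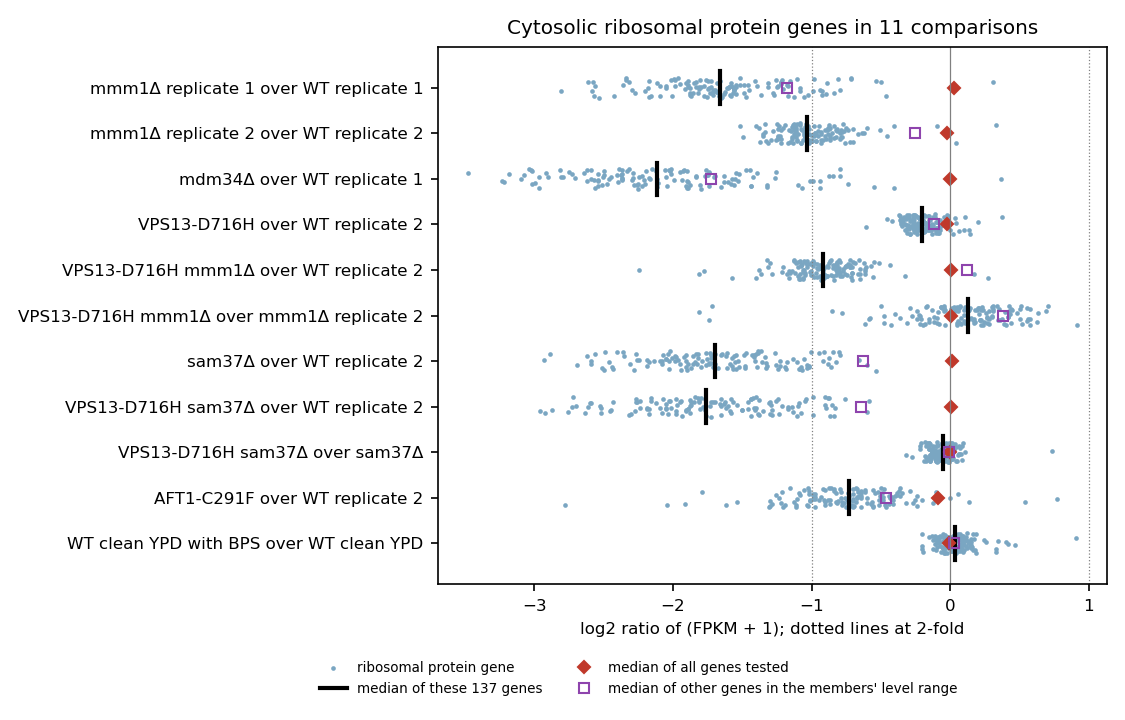
Log2 ratio of (FPKM + 1) of the 137 ribosomal protein genes (points) in 11 comparisons within a table, with the median of the family, of all genes tested and of other genes in the members' range of FPKM. The family median is -1.66 and -1.03 in the mmm1Δ pairs and -2.11 in mdm34Δ, where it is 0.15 once a trend with abundance and length is removed.

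In cells without MMM1 nearly all members were listed lower than in WT, in both pairs of libraries. The median log2 ratio of (FPKM + 1) was -1.66 for mmm1Δ replicate 1 over WT replicate 1 and -1.03 for mmm1Δ replicate 2 over WT replicate 2, while the median of all genes tested was 0.026 and -0.026. In pair 1, 121 of 137 members were at least 2-fold lower, as were 15.8% of all genes, and in pair 2 it was 77 members and 6.69% of all genes. No member was at least 2-fold higher in either pair, which 8.28% and 8.57% of all genes were. Below 0 in both pairs lay 135 members, as did 33.6% of the 4986 genes tested in both, and 75 members were at least 2-fold lower in both, as were 4.37% of those genes. Abundant genes as a class were lower too: 420 other genes in the members' range of FPKM had a median of -1.18 in pair 1, where 59.8% were at least 2-fold lower, and 432 such genes had -0.25 in pair 2, where 11.3% were. With a trend on abundance and length, fitted on other genes, removed, the family median was -0.31 and -0.52, and 3 members in each pair were at least 2-fold lower.

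No member passed the test over both pairs, limma blocked on the replicate number at a Benjamini-Hochberg adjusted p under 0.05, which called 61 of 6029 genes lower (1.01%) and 165 higher (2.74%). At an unadjusted p under 0.05 in limma, 71 members were lower and none was higher, among 1143 of 6029 genes in either direction. This count of members moved with the settings of the test. It was 41 with no filter on low values, beside 967 of 6660 genes in either direction. It was 129 when limma was run without its trend, beside 1167 of 6029 genes. The smallest adjusted p of a member in limma was 0.117, for the large subunit gene RPL18B, at a log2 fold change of -1.65 ± 0.49 (moderated SE, n = 2 pairs). RPL18B was listed at 597 FPKM in mmm1Δ replicate 1 and 970.0 in mmm1Δ replicate 2. In WT replicates 1 and 2 it was listed at 2327 and 2449, so it was lower in mmm1Δ within each table. Fitted on genes of at least 300 nt, limma called 12 of the 118 members left lower, beside 4.58% of all genes, with adjusted p of 0.0110 to 0.0493. These calls go with a larger number of prior degrees of freedom, which limma estimated as infinite in that fit against 7.59 with all 6029 genes: the unadjusted p of RPL18B was 0.000954 in limma on the longer genes and 0.00879 in limma on all, at a moderated SE of 0.50 and 0.49. The members called include RPL36B, RPL18B, RPS0B, RPL6A, RPS15, RPL7A, RPL23A and RPL13A. With genes of a mean of at least 50 FPKM, 3 members were called lower, beside 5.53% of all genes and again with infinite prior degrees of freedom, RPL36B and RPL18B among them. RPL36B shares its listed locus with another gene, so its level is uncertain.

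**Figure D3:**
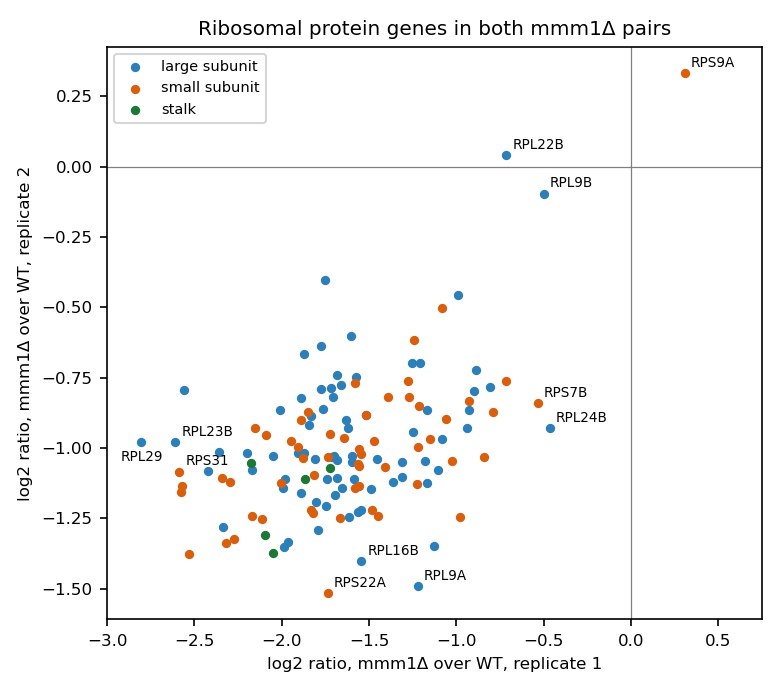
Log2 ratio of (FPKM + 1) of mmm1Δ over WT for each ribosomal protein gene in replicate 1 (x axis) and replicate 2 (y axis), coloured by subunit. RPS9A alone lies above 0 on both axes, at 0.31 and 0.33.

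The subunits lay close to each other in mmm1Δ. The large subunit had a median of -1.67 and -1.02 in pairs 1 and 2, and the small subunit -1.57 and -1.03. All 5 stalk genes, whose products form the arm that binds elongation factors, were at least 2-fold lower in both pairs, between -2.18 for RPP1A and -1.73 for RPP2B in pair 1 and between -1.37 for RPP2A and -1.05 for RPP1A in pair 2. RPP0, the base of the stalk, was listed at 2165 FPKM in mmm1Δ replicate 1 and 2459 in mmm1Δ replicate 2. In WT replicates 1 and 2 it was listed at 7907 and 5309.8, so it was lower in mmm1Δ within each table. RPS31, RPL40A and RPL40B, whose products are made as fusions with ubiquitin, had log2 ratios of -2.59, -2.17 and -1.57 in pair 1 and of -1.08, -1.08 and -1.23 in pair 2.

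The order of the members differed between the pairs, with a Spearman rho of 0.36 and a Pearson r of 0.48 over the 137 genes, which share the libraries. The lowest in pair 1 were RPL29 at -2.81, RPL23B at -2.61 and RPS31, and these stood at -0.98, -0.98 and -1.08 in pair 2, near its family median. The lowest in pair 2 were RPS22A at -1.52, RPL9A at -1.49 and RPL16B at -1.40. The top of the list was shared by RPS9A and RPL9B, which were among the highest 3 in both pairs. RPL9B had a log2 ratio of -0.50 in pair 1 and -0.096 in pair 2.

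RPS9A and RPS9B encode nearly the same protein of the small subunit, and their balance was the one that differed most from WT in mmm1Δ. RPS9A was listed at 497 FPKM in mmm1Δ replicate 1 and 815 in mmm1Δ replicate 2, against 402 in WT replicate 1 and 647 in WT replicate 2. RPS9B was listed at 1291 and 4306 FPKM in mmm1Δ replicates 1 and 2, against 3869 and 9500.2 in WT replicates 1 and 2. Within each table RPS9A was thus higher and RPS9B lower in mmm1Δ. The log2 copy ratio was -1.37 and -2.40 in mmm1Δ replicates 1 and 2, against -3.26 and -3.87 in WT replicates 1 and 2, which is a move of 1.89 and 1.47. The 2 WT libraries differed by -0.61. The pair is named here for the size of its move, so the gap between mmm1Δ and WT is no test. Taken alone, RPS9A did not pass the limma test, with a log2 fold change of 0.32 ± 0.43 (moderated SE, n = 2 pairs) and an adjusted p of 0.76. The RPS9 copies are 90.9% identical in coding sequence, and their longest shared run is 76 nt. RPS9A lies at chrXVI:404950-406044 and RPS9B at chrII:604508-605508, each on the plus strand with 1 intron in its coding sequence.

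RPL22 moved toward its minor copy. RPL22A, the major copy, was listed at 2579 and 4741 FPKM in mmm1Δ replicates 1 and 2, against 8276 and 10208 in WT replicates 1 and 2. RPL22B was listed at 528 and 743 FPKM in mmm1Δ replicates 1 and 2, against 868 and 723 in WT replicates 1 and 2. RPL22A was lower in mmm1Δ in both tables, while RPL22B was lower in pair 1 and 0.04 on the log2 scale in pair 2. The copy ratio moved by -0.97 and -1.15, against 0.57 between the WT libraries. RPL22A shares its listed locus with another gene, and RPL22B, at chrVI:64243-64932 on the minus strand, does not. The RPL22 copies are only 78.9% identical.

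In all, 10 of 59 pairs moved the same way in both mmm1Δ pairs by more than the WT libraries differed, 2 toward the A copy (RPS9 and RPL2) and 8 toward the B copy (RPL22, RPS22, RPL20, RPL12, RPL15, RPL11, RPL7 and RPL4). The B copy of RPS9 and RPL2 was the higher one in both WT libraries. For RPL22, RPS22, RPL15, RPL11, RPL7 and RPL4 it was the A copy, so all these pairs moved toward the less abundant copy. RPL20 and RPL12 had no lead shared by both WT libraries. The trend on abundance was not removed from copy ratios, and its part in these moves was not tested. RPS22 moved by -0.50 and -0.90, against 0.20 between the WT libraries. Each of the other 7 moved by less than 0.5 in both pairs, down to -0.057 and -0.096 for RPL4, whose copies are 98.9% identical. The copies of RPL11, RPL7 and RPL2 are 97.0, 96.7 and 96.3% identical, so their levels are uncertain too. The difference between the WT libraries was small for RPL4, RPL15, RPL7 and RPL2, at 0.019, -0.027, -0.058 and 0.089. RPL9 moved far, by -0.72 and -1.40 toward RPL9B, but the WT libraries differed by 1.65. Over all pairs the copy ratio moved by a median of 0.278 and 0.153 in absolute size in pairs 1 and 2, less than the 0.45 between the WT libraries. More than 1 log2 unit was reached by 3 pairs of copies in each, with RPS9 in both.

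**Figure D4:**
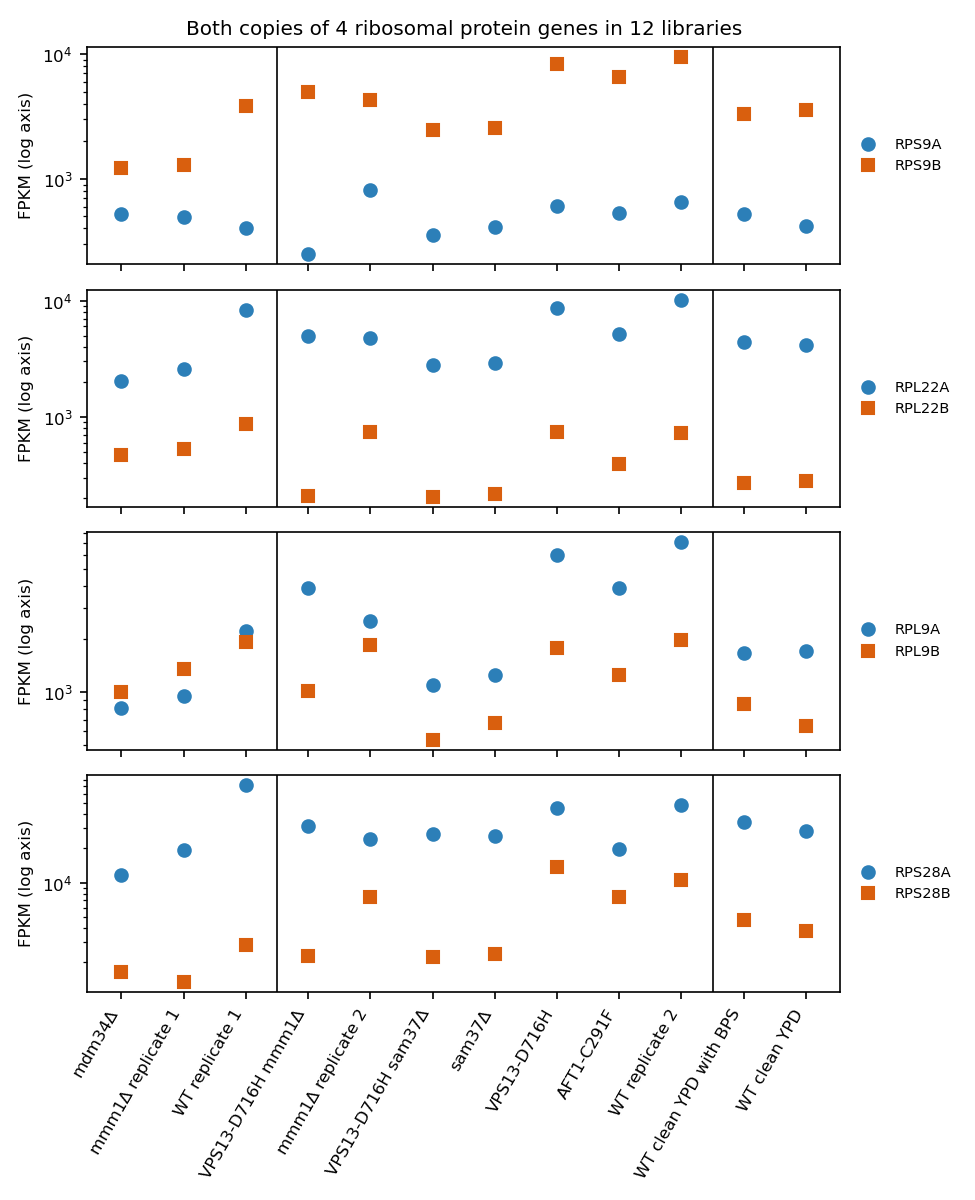
FPKM (log axis) of both copies of RPS9, RPL22, RPL9 and RPS28 in the 12 libraries, with black lines between the 3 tables. RPS9A is at 815 FPKM in mmm1Δ replicate 2 and at 248 in VPS13-D716H mmm1Δ.

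Loss of MDM34, another ERMES subunit, gave a similar picture in the first table. The family median for mdm34Δ over WT replicate 1 was -2.11, and 0.15 once the trend on abundance and length was removed, so its direction flips with that setting. In this comparison 126 members were at least 2-fold lower, as were 23.4% of all genes, none was at least 2-fold higher, as 11.8% were, and 410 other genes in the members' range of FPKM had a median of -1.72, with 80.7% at least 2-fold lower. The 43 of these above the level of the median member had a median of -2.39, below that of the family, and with the trend removed 1 member was at least 2-fold lower and 9 higher. RPL29, RPL23B and RPS31 were again lowest, at -3.48, -3.24 and -3.22, and this comparison shares WT replicate 1 with pair 1 of mmm1Δ. RPL29 was listed at 21619 FPKM in mdm34Δ and 34399 in mmm1Δ replicate 1, against 240531 in WT replicate 1. The WT libraries themselves differed at these genes. In WT replicate 2 RPL29, RPL23B and RPS31 were listed at 56989, 11668 and 38057 FPKM, against 240531, 44929 and 137107 in WT replicate 1. The median member stood at 9457 FPKM in WT replicate 2 and 9484 in WT replicate 1. RPS9A was again the highest, with 519 FPKM in mdm34Δ against 402 in WT replicate 1, and was the only member above 0. The stalk genes lay between -2.90 for RPP1A and -2.11 for RPP2B.

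Copy ratios of mdm34Δ were closest to those of mmm1Δ. They differed by a median of 0.11 from mmm1Δ replicate 1, by 0.16 from mmm1Δ replicate 2 in the other table, and by 0.36 from WT replicate 1. The mmm1Δ libraries differed from each other by 0.24 and the WT libraries in YPD by 0.45. In mdm34Δ over WT replicate 1, 5 pairs moved by more than 1: RPS7 by -2.04, RPS9 by 2.02, RPS28 by -1.85, RPS27 by 1.20 and RPL22 by -1.14. For RPS7 the A copy was listed at 2638 FPKM in mdm34Δ against 15895 in WT replicate 1, and the B copy at 481 in mdm34Δ against 705 in WT replicate 1. Between the WT libraries the copy ratio moved by -2.07 for RPS7 and by -2.50 for RPS28, further than in mdm34Δ, and by -0.61 for RPS9 and 0.57 for RPL22.

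The VPS13-D716H allele alone left the family near WT replicate 2. The median log2 ratio was -0.20, no member was at least 2-fold lower or higher, as 2.09% and 2.21% of all genes were, and no copy ratio moved by more than 1. The lowest member was RPL39, which lines the exit tunnel of the ribosome, at -0.61, with 67099.6 FPKM in VPS13-D716H against 102327 in WT replicate 2. RPL39 shares its listed locus with another gene, so its level is uncertain. The highest was RPS28B at 0.37. Each group has 1 library here, so the differences have no replicate check.

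With both VPS13-D716H and mmm1Δ, the family stood below WT replicate 2 and close to mmm1Δ replicate 2. The median was -0.91 over WT replicate 2, with 49 members at least 2-fold lower beside 11.6% of all genes and none at least 2-fold higher beside 11.7%, while 564 other genes in the members' range of FPKM had a median of 0.12. With the trend on abundance and length removed, the median over WT replicate 2 was -1.20 and 115 members were at least 2-fold lower. Over mmm1Δ replicate 2 the median was 0.13, and -0.51 with the trend on abundance and length removed, so its direction flips with that setting. The stalk genes all had positive log2 ratios over mmm1Δ replicate 2, from 0.22 for RPP0 up to 0.70 for RPP2A. Of all 137 members only 44 lay below 0 there. The 623 other genes in the members' range of FPKM had a median of 0.38. The 64 of these above the level of the median member had 0.63. RPL41A was listed at 643044 FPKM in VPS13-D716H mmm1Δ, 341866 in mmm1Δ replicate 2 and 531346 in WT replicate 2, and with RPL41B it was 1 of 2 members above WT replicate 2.

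Against that background, 3 members were at least 2-fold lower in VPS13-D716H mmm1Δ than in mmm1Δ replicate 2, as were 12% of all genes: RPL22B, RPS28B and RPS9A. No member was at least 2-fold higher, as 9.43% of all genes were. RPL22B was listed at 211 FPKM in VPS13-D716H mmm1Δ, 743 in mmm1Δ replicate 2, 745 in VPS13-D716H and 723 in WT replicate 2. RPS28B was listed at 2243 FPKM in VPS13-D716H mmm1Δ, 7496 in mmm1Δ replicate 2, 13737 in VPS13-D716H and 10624 in WT replicate 2. RPS9A was listed at 248 FPKM in VPS13-D716H mmm1Δ, 815 in mmm1Δ replicate 2, 604 in VPS13-D716H and 647 in WT replicate 2. In each of the 3, VPS13-D716H mmm1Δ was below the other libraries named. Their partners were not lower: RPL22A, RPS28A and RPS9B had log2 ratios of 0.07, 0.39 and 0.20 over mmm1Δ replicate 2. RPL9B followed with -0.85, beside 0.63 for RPL9A.

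The copy ratio of 5 pairs therefore moved by more than 1 against mmm1Δ replicate 2, by 2.13 for RPS28, -1.91 for RPS9, 1.88 for RPL22, 1.48 for RPL9 and -1.27 for RPS27. In all 5 this is opposite in sign to the move of mmm1Δ replicate 2 from WT replicate 2, and the mmm1Δ library is shared by both comparisons. Against WT replicate 2, which both mutants share, the RPS9 copy ratio moved by -0.44 in VPS13-D716H mmm1Δ and by 1.47 in mmm1Δ replicate 2, the RPL22 ratio by 0.74 and -1.15, and the RPL9 ratio by 0.081 and -1.40. RPS28 and RPS27 were the pairs beyond 1 in VPS13-D716H mmm1Δ against WT replicate 2, at 1.63 and -1.06, beside -0.49 and 0.20 in mmm1Δ replicate 2. The coding sequences of the RPS27 and RPS28 genes are shorter than 300 nt. RPS27A also shares its listed locus with another gene, so its level is uncertain.

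The libraries of sam37Δ and VPS13-D716H sam37Δ held the family at -1.70 and -1.76 relative to WT replicate 2. At least 2-fold lower were 124 and 123 members (46 and 49 with the trend on abundance and length removed), beside 10.7% and 10.9% of all genes, and all 137 lay below 0 in both. None was at least 2-fold higher, as 6.32% and 6.81% of all genes were. Other genes in the members' range of FPKM had medians of -0.63 and -0.64, and with the trend on abundance and length removed the family median was -0.85 and -0.82. RPL41A at -2.93, RPL30 at -2.89 and RPS7A at -2.69 were lowest in sam37Δ and, at -2.96, -2.92 and -2.87, in VPS13-D716H sam37Δ. RPL30, which autoregulates its splicing, was listed at 3527 FPKM in sam37Δ and 3435 in VPS13-D716H sam37Δ, against 26089 in WT replicate 2, and at 4979 in WT in clean YPD. The copy ratio moved by more than 1 in 9 and 10 pairs, led by RPS7 at -1.47 and -1.74 and RPS28 at 1.26 and 1.42. WT in clean YPD, with the SAM37 gene intact, differed from WT replicate 2 by more than 1 in 8 pairs, and sam37Δ from WT in clean YPD in none, with a median absolute difference of 0.0978.

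Within the sam37Δ background the VPS13-D716H allele made little difference to the family. The median of VPS13-D716H sam37Δ over sam37Δ was -0.055, no member was at least 2-fold lower or higher, beside 1.02% and 1.18% of all genes, and no copy ratio moved by more than 1. RPL36B was the exception in size at 0.74, with 812 FPKM in VPS13-D716H sam37Δ against 487 in sam37Δ. Its listed locus is shared with another gene, so its level is uncertain.

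In AFT1-C291F, an allele that keeps the iron regulon active, members were lower with wide spread. The median over WT replicate 2 was -0.73, and -0.073 with the trend on abundance and length removed. At least 2-fold lower were 31 members, 22.6% of the family (1 with that trend removed), beside 14.2% of all genes. None was at least 2-fold higher, beside 15.6%. The 444 other genes in the members' range of FPKM had a median of -0.46, and 23.9% of them were at least 2-fold lower. The log2 ratio followed length, with a Pearson r of 0.64 and a Spearman rho of 0.67 over the 137 members of the same libraries: the 19 members under 300 nt had a median of -1.16 and the 118 longer ones -0.70. The part of length in these values was not tested. RPL36B was lowest at -2.78, followed by RPL41B at -2.05 and RPL41A at -1.91. Above 0 lay 5 members, RPL6B, RPS7B, RPP0, RPL6A and RPL4A, the last 2 named after their values were seen. RPL6B was listed at 3010.2 FPKM in AFT1-C291F against 1762 in WT replicate 2, and RPS7B at 1987 in AFT1-C291F against 1365 in WT replicate 2. The copy ratio moved by 1.67 for RPL36, -1.29 for RPS7 and 1.02 for RPL43. RPL36A, RPL36B and RPL43A share a listed locus with another gene, so the RPL36 and RPL43 values are uncertain.

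Chelation of iron for 4 hours left the family where it was to within 2-fold. The median of WT in clean YPD with BPS over WT in clean YPD was 0.033, no member was at least 2-fold lower or higher, beside 3.91% and 3.18% of all genes, and no copy ratio moved by more than 1. RPL36B was highest at 0.91, with 1146 FPKM with BPS against 609 in clean YPD. The level of RPL36B is uncertain, since its listed locus is shared with another gene. RPS29A at 0.47 and RPL29 at 0.42 came next, and RPS20, RPS12 and RPL1A were lowest at -0.21, -0.20 and -0.20.

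**Figure D5:**
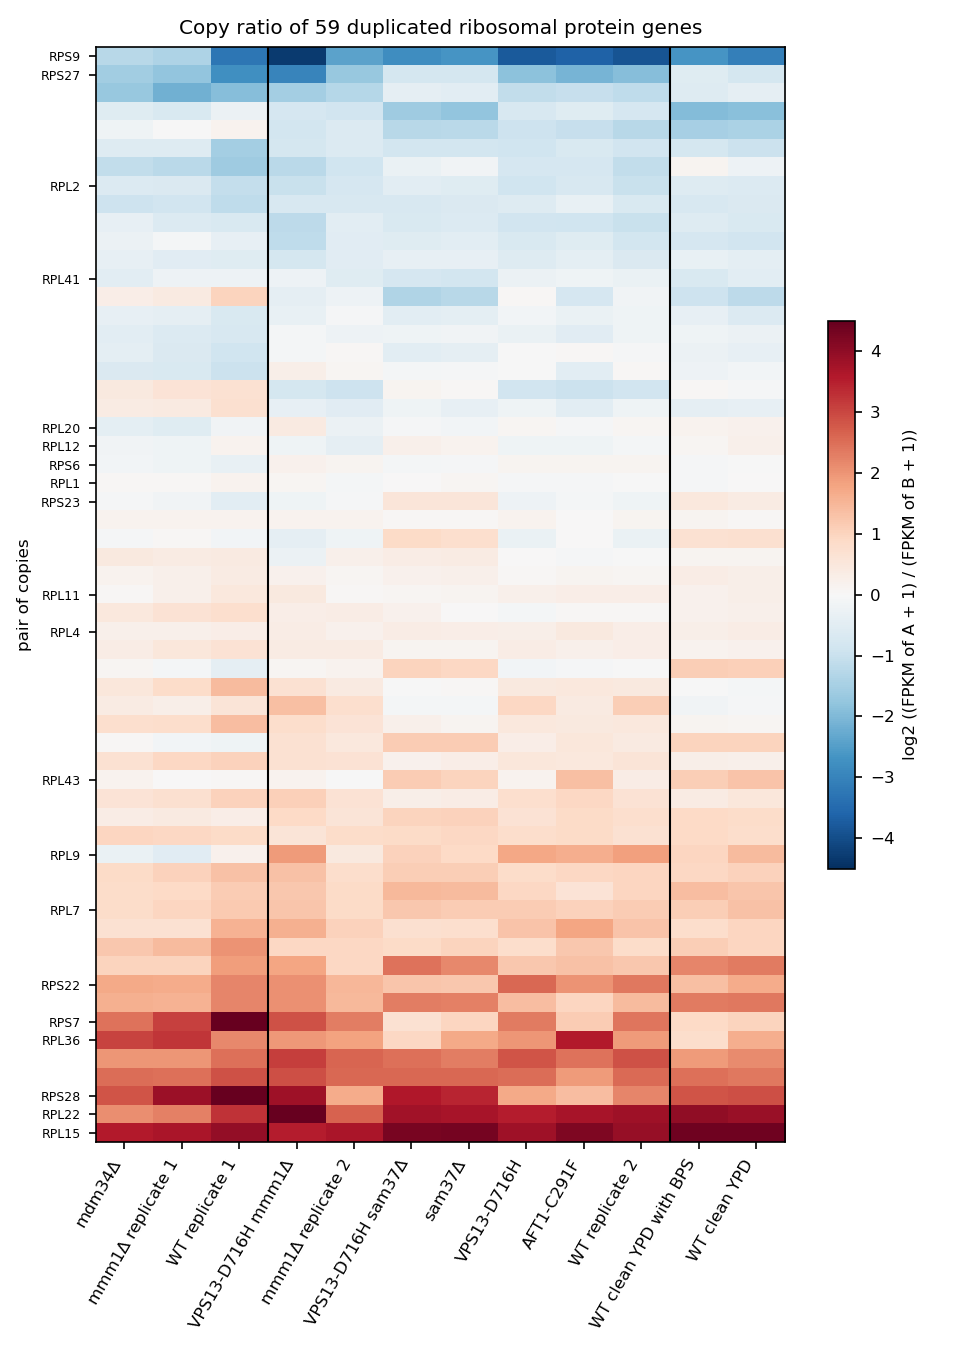
Log2 copy ratio of the 59 pairs (A over B) in the 12 libraries, ordered by mean, with black lines between the 3 tables and labels on pairs described in the text. RPS9 is the lowest at a mean of -2.93 and RPL15 the highest at 3.97.

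Across all 12 libraries the dominant copy of most pairs stayed the same. The A copy had the higher FPKM in every library in 25 pairs, the B copy in 13, and 21 were mixed. Without the 4 libraries that stood apart, 1 copy was higher throughout in 42 pairs in place of 38. A lead of at least 1.5-fold in every library was seen in 17 pairs over all 12 libraries and in 22 without those 4. RPL15 was the most unequal, with a mean log2 copy ratio of 3.97 and a range of 3.54 in VPS13-D716H mmm1Δ to 4.39 in WT in clean YPD. RPL22 at 3.44, RPS9 at -2.93 and RPS28 at 2.91 followed, and unlike RPL15 they ranged over 2.45, 3.07 and 3.29 log2 units. By the mean over the libraries the most equal pairs were RPL1 at 0.014, RPS6 at -0.016, RPS23 at 0.038 and RPL12 at -0.046. The copies of RPL1 and RPS6 are 99.4 and 99.2% identical, so their equality is uncertain. RPS23 is near 0 as a mean of both signs, from -0.48 in WT replicate 1 to 0.53 in VPS13-D716H sam37Δ.

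In mmm1Δ the medians of members with and without an intron, a Rap1 core or a second copy lay within 0.2 of each other. An intron interrupts the coding sequence of 89 members, which had a median of -1.66 and -1.03 in mmm1Δ pairs 1 and 2, while the 48 without had -1.67 and -1.0. The 58 members with the Rap1 core had -1.68 and -1.05, and the 79 without it -1.62 and -1.01. The 118 paired copies had -1.64 and -1.02, and the 19 single genes -1.81 and -1.08. Coding length went with larger differences elsewhere: the 19 members under 300 nt had medians of -2.46 in mdm34Δ and -2.05 in sam37Δ, against -2.04 and -1.68 for the 118 longer members, beside -1.77 and -1.02 against -1.64 and -1.03 in the mmm1Δ pairs.

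Around the family, 3 lists of genes of the same pathway were described. Of 13 regulators of ribosomal protein genes, none was called by limma in mmm1Δ, beside 1.01% of all genes called lower and 2.74% higher. IFH1, the coactivator held at these promoters, had the highest ratio of the list in both mmm1Δ pairs, 1.58 and 0.72, and in mdm34Δ and AFT1-C291F, 2.06 and 2.38. IFH1 was listed at 10.7 FPKM in mmm1Δ replicate 1 and 15.3 in mmm1Δ replicate 2, against 2.92 in WT replicate 1 and 8.84 in WT replicate 2. The value in WT replicate 1 is low, under the 5 FPKM asked of the mean, and the median gene there was at 12.3. The ratios of IFH1 in pair 1 and in mdm34Δ rest on it and are uncertain. HMO1, a protein bound at many of these promoters, was lowest in mmm1Δ pair 1 at -1.04 and in mdm34Δ at -1.39. TOD6, a repressor of ribosome biogenesis genes, was lowest in VPS13-D716H mmm1Δ, at -3.48 over WT replicate 2, where 3 of the 13 were at least 2-fold lower, beside 11.6% of all genes, and none higher.

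A list of 11 genes held chaperones and importers of ribosomal proteins, and TMA19. None was called by limma in mmm1Δ, beside 1.01% of all genes called lower and 2.74% higher. In VPS13-D716H mmm1Δ, 9 of the 11 were at least 2-fold lower than in WT replicate 2 and 8 were at least 2-fold lower than in mmm1Δ replicate 2, beside 11.6% and 12% of all genes, with list medians of -1.74 and -1.18. The lowest was SYO1, which brings Rpl5 and Rpl11 into the nucleus together, with 5.51 FPKM in VPS13-D716H mmm1Δ against 48.2 in mmm1Δ replicate 2 and 49.2 in WT replicate 2. TMA19, a protein found on ribosomes, was lowest of the list in both mmm1Δ pairs, at -2.44 and -1.32, and in mdm34Δ at -3.14. The list medians in these comparisons were 0.31, -0.48 and 0.43. Other genes in the range of FPKM of the ribosomal protein genes had medians of -1.18, -0.25 and -1.72. Those above the level of the median ribosomal protein gene had -1.59, -0.50 and -2.39.

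Of 20 elongation and ribosome-bound factors, 19 were tested. In mmm1Δ limma called none lower, beside 1.01% of all genes, and 1 higher, beside 2.74%. This was ANB1, the eIF5A gene used when oxygen or heme is scarce, which rose by 3.38 ± 0.46 on the log2 scale (moderated SE, n = 2 pairs, limma adjusted p = 0.00448). ANB1 was listed at 583 FPKM in mmm1Δ replicate 1, 1176 in mmm1Δ replicate 2 and 144 in VPS13-D716H mmm1Δ. In WT replicates 1 and 2 it was listed at 89.6 and 69.0, so it was higher in mmm1Δ within each table. At least 2-fold lower were 14 of the 19 in mmm1Δ pair 1, 2 in pair 2 and 15 in mdm34Δ, beside 15.8%, 6.69% and 23.4% of all genes and 59.8%, 11.3% and 80.7% of the other genes in the range of FPKM of the ribosomal protein genes, with list medians of -1.52, -0.71 and -1.88. The lowest in these comparisons were HYP2 at -2.49, TEF4 of elongation factor eEF1B at -1.63, and ASC1, a protein of the small subunit's head, at -2.77.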

How the data were processed

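Yeast RNA was sequenced in 12 libraries, and the authors deposited FPKM for each gene, per the file headers, in 3 tables. The build sacCer3, Cuffdiff 2.0.2 and TopHat2 2.0.8 are named per the submitters' processing notes, without roles or settings. FPKM carry no counts, so depth is unknown and no counting error is given. Listed lengths differ between tables for 89 members, those with an intron, but FPKM do not follow them: the slope on the log2 scale across these was 0.11 and -0.18 between replicates, where -1 would follow from the listed length. Members were matched to RefSeq R64 by identifier, and 124 of 137 had the same ends there. RPL41B, unnamed in the first table, was matched by its systematic name. Of the members, 17 share a listed locus with another gene, so their levels are uncertain. They include RPL7B, RPL12A, RPL12B, RPL22A, RPL36A, RPL36B, RPL39, RPL43A, RPP0 and RPS27A.

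Ratios are log2 of (FPKM + 1) within a table, for genes with a mean of at least 5 FPKM, which understates changes of low values. The mmm1Δ pairs were tested with limma 3.58.1 (R 4.3.3; trend on, two-sided, Benjamini-Hochberg), with the replicate number, which is also the table, as a block; deviations of libraries with the same number correlated at 0.62 over 6029 genes. The fit has 1 residual and 7.59 prior degrees of freedom. The scripts were tested on simulated data. Groups with 1 library have no test. The text names the stalk genes, the ubiquitin fusions, the highest and lowest 3 members and the 3 largest moves of copy ratios per comparison, the 4 most unequal and 4 most equal pairs, and members called by limma, some of which are not reported here. The members, lists and tests were chosen with earlier results of these data known. Alternatives were other pseudocounts, filters, scalings, lengths, blocks and identity limits, and members left out.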

Additional observations from a re-analysis of the deposited data

Results flagged for a closer look

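The VPS13-D716H allele went with ribosomal protein medians of opposite sign in different backgrounds: the log2 median was 0.13 for VPS13-D716H mmm1Δ over mmm1Δ replicate 2, against -0.20 for VPS13-D716H over WT replicate 2. It was -0.055 for VPS13-D716H sam37Δ over sam37Δ, also opposite to the 0.13 in mmm1Δ. Each background has 1 library per group, so neither difference was tested, and the value in mmm1Δ is -0.51 once the trend on abundance and length is removed.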

How the results depend on the processing

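Every member stood well above the filter, so pseudocount and filter on low values left the family medians and the counts past 2-fold on the same side, and leaving out members with a shared locus did so too. Removing a trend with abundance and length, fitted on other genes, moved them most. The family median was then -0.31 and -0.52 in the mmm1Δ pairs, 0.15 in mdm34Δ, -0.073 in AFT1-C291F, -0.82 in VPS13-D716H sam37Δ, -0.85 in sam37Δ and -0.51 in VPS13-D716H mmm1Δ over mmm1Δ replicate 2. Members at least 2-fold lower numbered 3 and 3 in the mmm1Δ pairs, 1 in mdm34Δ, 115 in VPS13-D716H mmm1Δ over WT replicate 2, 8 over mmm1Δ replicate 2, 1 in AFT1-C291F, 49 in VPS13-D716H sam37Δ and 46 in sam37Δ, and those higher 1 in mmm1Δ pair 1, 9 in mdm34Δ and 1 in AFT1-C291F. The large minus small subunit difference was -0.066 in AFT1-C291F, -0.19 in VPS13-D716H sam37Δ and 0.047 in mdm34Δ. The cause was not tested. Genes of similar abundance lie in the fit itself, so it removes what the family shares with them.

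For mmm1Δ over WT, leaving out a replicate gave family medians of -1.66 to -1.03. Over all genes, limma without the replicate block called 23 genes higher and 2 lower, and 0 members. A pseudocount of 0.1 gave 248 higher and 124 lower, one of 10 gave 109 and 28, no filter 20 and 3, and genes of at least 300 nt 386 and 257. A mean of at least 50 FPKM gave 140 lower and centring on all genes 139. Members called lower were 3 with the stricter filter and 12 with genes of at least 300 nt, both fits with infinite prior degrees of freedom, and 0 under the other settings, of which the fit without the block also had infinite ones. Members lower at an unadjusted p under 0.05, 71 as reported, were 41 with no filter, 45 centred, 47 without the block, 63 and 83 with pseudocounts of 10 and 0.1, 74 with the stricter filter, 91 with genes of at least 300 nt and 129 in limma without its trend. Beside these, all genes at that p in either direction were 967 of 6660 with no filter, 1171 centred and 202 without the block. They were 1042 and 1210 with pseudocounts of 10 and 0.1. With the stricter filter they were 621 of 2532, with genes of at least 300 nt 1274 of 5615, and without the trend 1167.

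With members of at least 300 nt, 20 were at least 2-fold lower in AFT1-C291F, and the large minus small subunit difference in sam37Δ was -0.012. Pairs whose copy ratio moved by more than 1 were then 3 in mdm34Δ, 0 in VPS13-D716H mmm1Δ over WT replicate 2, 3 over mmm1Δ replicate 2, 5 in sam37Δ and 6 in VPS13-D716H sam37Δ, with 51 pairs left. A lead of at least 1.5-fold in every library was held by 17 of all 59 pairs, and by 16 of these 51.

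The share of the family by a plain sum of FPKM was 56.7% in mmm1Δ replicate 1, 54.7% in mdm34Δ, 71.2% in WT replicate 1, 41.4% in AFT1-C291F, 33.7% in VPS13-D716H sam37Δ, 34.7% in sam37Δ, 47.0% in VPS13-D716H mmm1Δ, 46.9% in mmm1Δ replicate 2, 54.3% in VPS13-D716H, 58.8% in WT replicate 2, 36.1% with BPS and 35.6% in clean YPD. Weighted by the listed length, an alternative chosen after seeing the data, it was 33.5% in AFT1-C291F, 27.0% in VPS13-D716H sam37Δ, 27.8% in sam37Δ, 33.6% in VPS13-D716H mmm1Δ, 35.3% in mmm1Δ replicate 2, 45.7% in VPS13-D716H, 48.9% in WT replicate 2, 28.1% with BPS and 27.7% in clean YPD. With genes of at least 300 nt it was 25.4% in mmm1Δ replicate 1 and 37.4% in WT replicate 1, and without both RPL41 genes, also chosen after seeing the data, 25.8% in mmm1Δ replicate 1 and 39.1% in WT replicate 1. Depth is unknown and 8 groups have 1 library, so most differences have no error.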
